A study of Arabidopsis thaliana with 9 samples.

Results

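A list of 10 genes known from the response of Arabidopsis thaliana to sulfur deficiency was followed in cells sorted from the quiescent centre (QC), the slowly dividing cells around which the stem cells of the root lie. The genes were BGLU28 (AT2G44460), GGCT2;1 (AT5G26220), SDI1 (AT5G48850), SDI2 (AT1G04770), LSU1 (AT3G49580), LSU2 (AT5G24660), SULTR1;1 (AT4G08620), SULTR1;2 (AT1G78000), SULTR4;2 (AT3G12520) and SULTR2;1 (AT5G10180). All 10 of them had 1 probe set each, among 21430 loci on the arrays, and no filter on dim signal was applied. The list was selected on results from these same arrays, with the low levels of GGCT2;1 and BGLU28 at 4 h, against mock and against 1 h, already known. The fold changes of the 10 genes are therefore given as a description with no p-value, and counts of calls among them support nothing by themselves.

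The series comprised 3 groups of 3 arrays. All plants were plt1plt2 double mutants, which lack functional copies of a pair of AP2-type transcription factor genes of the root meristem, and carried a dexamethasone-inducible PLT2-GR fusion under the PLT2 promoter that complements the mutant, together with a WOX5 promoter-driven GFP used for sorting. Dexamethasone, a synthetic glucocorticoid, releases such a fusion into the nucleus. Seedlings were used 5 days after germination and spent 1 h or 4 h on medium with 10 µM dexamethasone, or 1 h on medium with the solvent alone (mock). The solvent, dimethyl sulfoxide, was present in all 3 groups. Protoplasts were then made from cut root tips in enzyme solution for 1 h before sorting. How many independent plant lines were used is not stated, and the purity of the sorted cells was not measured. There was no mock group of 4 h and no dexamethasone-treated group without the fusion, so that time on the plate, the drug and the release of PLT2-GR cannot be told apart in the comparison of 4 h with mock. At 1 h against mock the drug and the release of PLT2-GR cannot be told apart. At 4 h against 1 h, time on the plate cannot be told apart from the length of drug exposure and induction.

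Plants take up sulfur as sulfate through SULTR transporters, reduce it to sulfide and fix it into cysteine, from which glutathione is made. When sulfate runs short, a set of genes is induced that raises uptake, empties sulfate stores in the vacuole, and releases sulfur from glutathione and from glucosinolates, the sulfur-rich defence compounds of the cabbage family. The transcription factor SLIM1 controls much of this response, and the precursor O-acetylserine, which accumulates when sulfide is lacking, induces a part of it.

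The clearest pattern was a low level of a pair of sulfur-releasing genes and of the sulfate transporter SULTR1;2 at 4 h after induction. At 4 h against mock the differences of the SDI and LSU genes lay between -0.23 and 0.03 on the log2 scale. LSU1 and LSU2 lay near the first quartile of all loci, where a fall is hard to measure, and SDI1 was dim. The difference of SDI2 was -0.267 without mock replicate 1, and SDI1 was at -0.42 at 4 h against 1 h. At 4 h the mean of GGCT2;1 was 5.67-fold below mock, BGLU28 3.77-fold, SULTR1;2 2.07-fold and SULTR4;2 1.72-fold, the last with arrays that overlapped and a call lost in 5 of 9 fits with 1 array left out. At 1 h the arrays of all of these overlapped with mock. The first genes to be described are those that release sulfur from organic compounds, followed by the transporters and the regulatory proteins.

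GGCT2;1 encodes a gamma-glutamyl cyclotransferase, an enzyme that cleaves glutathione in the cytosol and so makes its amino acids available again. Its log2 expression was 7.41, 8.54 and 8.09 on mock replicates 1, 2 and 3, then 7.52, 7.52 and 7.14 on the 1 h arrays, and 5.72, 5.45 and 5.37 at 4 h. All arrays at 4 h lay below all arrays of the other groups, whereas the 1 h arrays overlapped with mock, replicate 1 of which was the lowest of its group. The difference on the log2 scale was -0.62 ± 0.24 at 1 h against mock, -2.50 ± 0.24 at 4 h against mock and -1.88 ± 0.24 at 4 h against 1 h, where ± is the standard error of the model throughout. The spread within mock was wide (SD 0.57, n = 3) beside 0.218 at 1 h and 0.183 at 4 h, and leaving out single arrays moved the difference at 4 h against mock between -2.81 and -2.24. At 1 h against mock it moved from -0.926 without mock replicate 1 to -0.36 without mock replicate 2.

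BGLU28 encodes a beta-glucosidase and is among the genes most strongly induced by sulfur deficiency. The enzyme takes part in the breakdown of glucosinolates. Its log2 level was 6.33, 7.19 and 6.87 in mock, 6.65, 6.36 and 6.2 at 1 h, and 5.10, 4.57 and 4.98 at 4 h. The 4 h arrays again lay apart from the other 6, and mock replicate 1 fell within the range of the 1 h arrays. The differences were -0.39 ± 0.21 at 1 h against mock, -1.91 ± 0.21 at 4 h against mock and -1.52 ± 0.21 at 4 h against 1 h. The difference at 1 h was -0.628 without mock replicate 1 and -0.194 without mock replicate 2. Across the 9 arrays the levels of BGLU28 and GGCT2;1 had a Pearson correlation of 0.99, and their deviations from the group means one of 0.87. These coefficients describe 9 points that share arrays and group differences, and carry no test.

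Of the transporters, SULTR1;2 is the main high-affinity carrier for sulfate uptake into the root, active in the outer cell layers. It stood at 10.03, 10.93 and 10.55 in mock, 10.35, 10.31 and 10.20 at 1 h, and 9.27, 9.75 and 9.34 at 4 h. No 4 h array reached the range of mock or of 1 h. The difference was -0.22 ± 0.20 at 1 h against mock, -1.05 ± 0.20 at 4 h against mock and -0.83 ± 0.20 at 4 h against 1 h. At 1 h it was -0.456 without mock replicate 1 and -0.0066 without mock replicate 2. Its correlation over the 9 arrays was 0.94 with GGCT2;1 and 0.90 with BGLU28.

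SULTR4;2 is located in the vacuolar membrane and exports stored sulfate to the cytosol. Its log2 level was 5.41, 6.09 and 5.75 in mock, 5.52, 5.35 and 5.41 at 1 h, and 5.41, 4.74 and 4.74 at 4 h. Replicates 2 and 3 at 4 h were below every other array, but replicate 1 at 4 h was level with mock replicate 1, so the groups overlapped. Its difference at 4 h against mock was -0.78 ± 0.20, with -0.32 ± 0.20 at 1 h against mock and -0.46 ± 0.20 at 4 h against 1 h. The difference at 1 h was -0.49 without mock replicate 1 and -0.153 without mock replicate 2. The call at 4 h against mock rested on single arrays. Without mock replicate 2 the difference at 4 h was -0.616 and no longer called, and the call was also lost without mock replicate 3, 1 h replicate 2, 4 h replicate 2 or 4 h replicate 3.

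SULTR1;1, a second high-affinity uptake carrier that is strongly induced by sulfur deficiency, was at 3.91, 3.99 and 3.73 in mock, 3.63, 3.42 and 3.69 at 1 h, and 3.76, 3.83 and 3.85 at 4 h. These levels lay near the first quartile of all loci on the arrays, 3.55 to 3.63, where differences are hard to measure. The 1 h arrays were all below the mock arrays, by 0.30 on average (-0.30 ± 0.10), and all below the 4 h arrays (0.23 ± 0.10 at 4 h against 1 h), while 4 h and mock differed by -0.07 ± 0.10. SULTR2;1, a low-affinity transporter of the root vasculature that moves sulfate towards the shoot, had levels of 3.99, 4.20 and 4.18 in mock, 4.16, 4.18 and 4.29 at 1 h, and 4.57, 4.13 and 4.17 at 4 h. Its groups overlapped in every comparison, and its difference at 4 h against mock was 0.17 ± 0.12.

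SDI1 and SDI2 (SULFUR DEFICIENCY-INDUCED) are related proteins known to repress the synthesis of aliphatic glucosinolates under sulfur deficiency. SDI2 was at 8.21, 9.15 and 9.08 in mock, 9.05, 8.93 and 9.0 at 1 h, and 8.95, 8.97 and 8.63 at 4 h. Mock replicate 1 was the lowest of the 9 arrays and the other 8 lay between 8.63 and 9.15. The difference at 4 h against mock was 0.03 ± 0.21 over all arrays and -0.267 without mock replicate 1, so no direction can be given. SDI1, a dimmer probe set, was at 4.05, 4.64 and 4.43 in mock, 4.60, 4.54 and 4.58 at 1 h, and 4.21, 4.17 and 4.08 at 4 h. All 4 h arrays of SDI1 were below all 1 h arrays (-0.42 ± 0.13), but mock replicate 1 was lower than the 4 h arrays, and the difference between 4 h and mock was -0.22 ± 0.13.

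The LSU genes (RESPONSE TO LOW SULFUR) encode small proteins that bind many partners, and they serve as standard markers of sulfur deficiency. LSU1 was at 3.66, 3.91 and 4.02 in mock, 3.78, 3.70 and 3.78 at 1 h, and 3.67, 3.44 and 3.78 at 4 h. LSU2 was at 3.66, 3.57 and 3.64 in mock, 3.79, 3.65 and 3.82 at 1 h, and 3.41, 3.51 and 3.67 at 4 h. On at least 1 array LSU1, LSU2 and SULTR1;1 did not exceed that array's first quartile, which was not so for the other 7 genes. At 4 h against mock the difference was -0.23 ± 0.11 for LSU1 and -0.09 ± 0.09 for LSU2, with overlapping arrays in both. LSU1 and LSU3 are neighbours in the genome, as are LSU2 and LSU4, and the sources used here do not say whether such close relatives share probes.

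**Figure D1:**
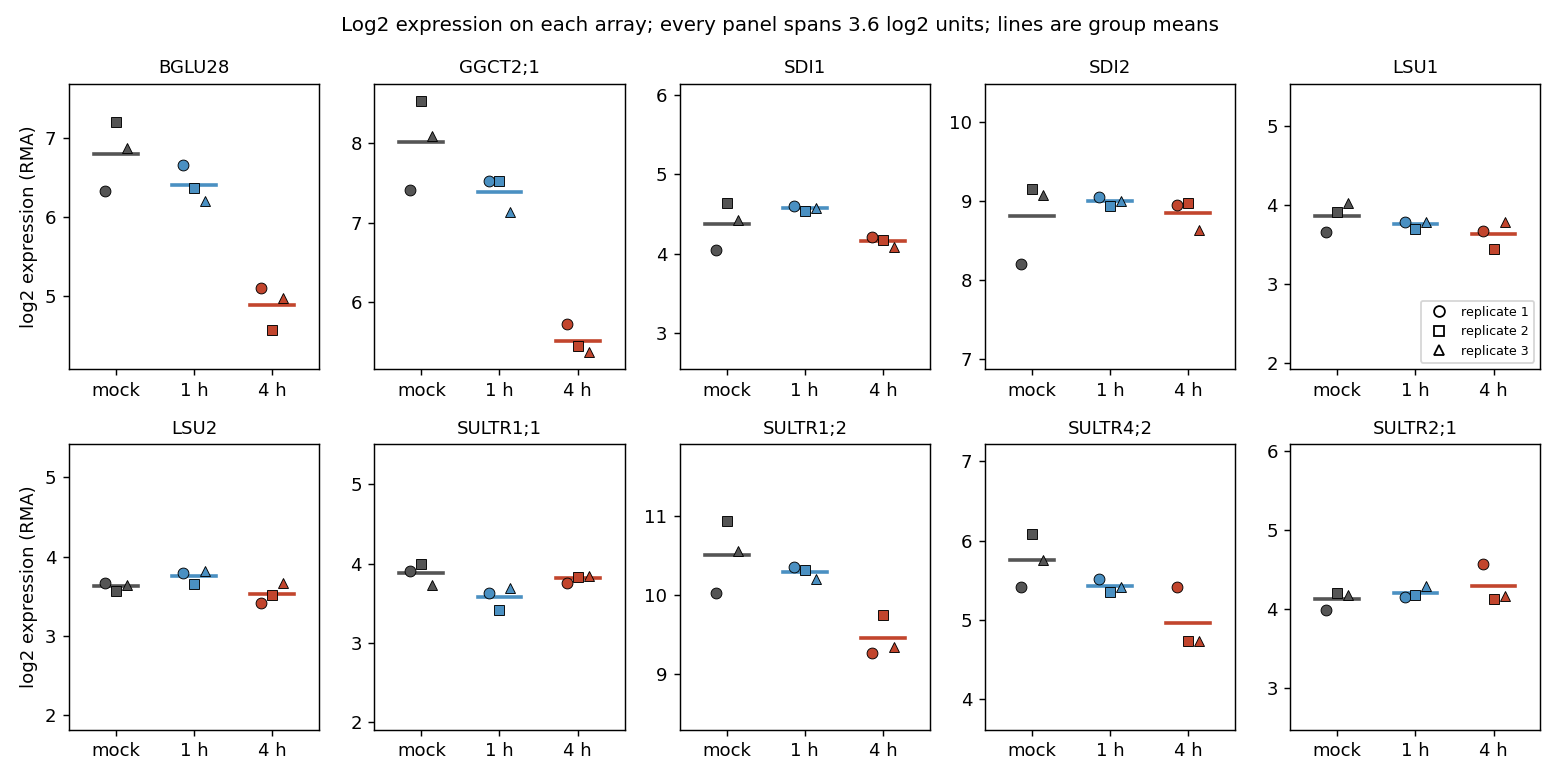
Log2 expression (RMA) of the 10 sulfur-deficiency response genes on each of the 9 arrays, by group (mock, 1 h and 4 h of dexamethasone), with replicates as symbols and group means as lines; each panel has its own range of the same height. GGCT2;1, BGLU28 and SULTR1;2 have all 4 h arrays below the other 6, and mock replicate 1 is the lowest mock array for 8 of the 10 genes.

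Counted over the list, limma called 4 of the 10 genes lower at 4 h against mock (those given with folds above) and 0 higher, where a call is an adjusted p under 0.05. Over all loci 5.23% were called lower in this comparison and 5.53% higher. In 3 of the 10 all 4 h arrays were below all mock arrays, which held for 13.4% of all loci. In 0 genes did all 4 h arrays exceed all mock arrays (14.3% of all loci). The median difference of the 10 genes was -0.23, beside 0.01 over all loci. At 4 h against 1 h limma called 2 of the 10 lower, GGCT2;1 and BGLU28, against 0.966% of all loci, and 0 higher, against 0.887% (1.85% in either direction). The 4 h arrays were the lower ones without overlap in 4 genes (10.1% of all loci) and the higher ones in 1, SULTR1;1 (11.7% of all loci). These calls did not hold without every array. Without any 1 h array, or without 4 h replicate 2, limma called 0 of the 10 at 4 h against 1 h, and without mock replicate 3 it called 1, the cyclotransferase gene. The median was -0.32 here, beside 0.02 over all loci. At 1 h against mock limma called 0 of the 10 in either direction, and 2 had an unadjusted p under 0.05, both lower, against 2.01% of all loci. Over all loci 0.187% were called, 0.00933% lower and 0.177% higher. In 1 gene, SULTR1;1, all 1 h arrays were below all mock arrays (5.4% of all loci), and in 0 genes were they all above (5.73% of all loci). Since these genes were chosen with these values in view, nothing is read from the counts. The comparisons share arrays: those with mock use the same mock arrays, and those with 4 h the same 4 h arrays.

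**Figure D2:**
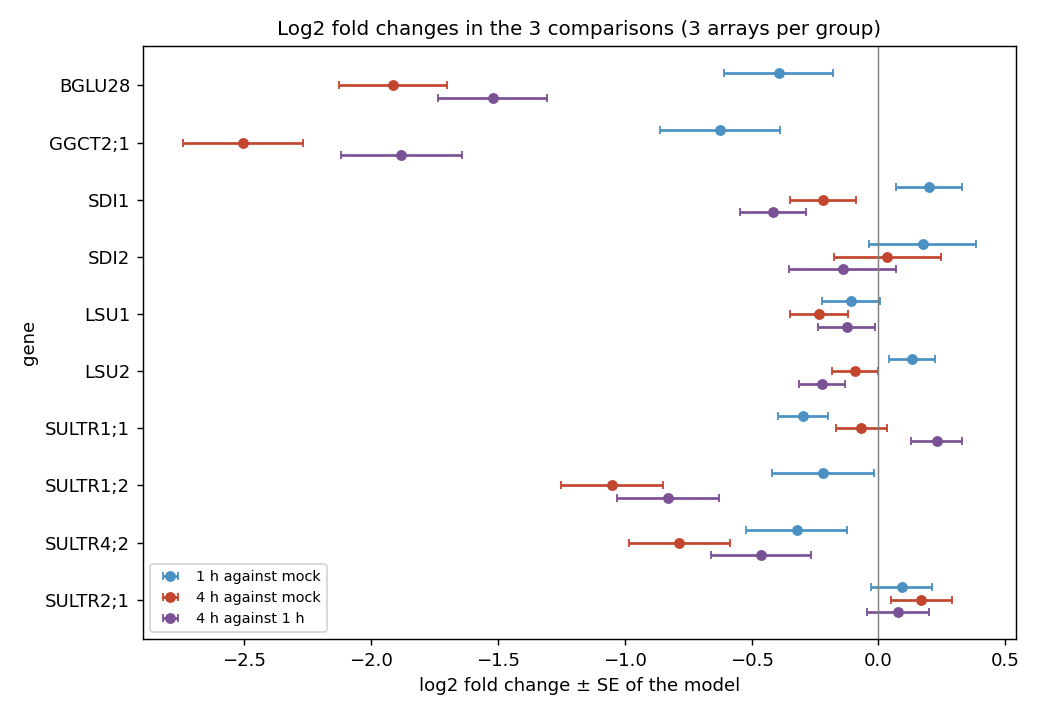
Log2 fold changes (x axis) of the 10 genes in the 3 comparisons, each with the standard error of the limma model (3 arrays per group). For GGCT2;1 and BGLU28 the points of 4 h against mock (-2.50 and -1.91) and of 4 h against 1 h (-1.88 and -1.52) lie far to the left of 1 h against mock (-0.62 and -0.39), and among the SDI and LSU genes the point farthest to the left is SDI1 at 4 h against 1 h (-0.42).

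A single 4 h array stood apart in its controls. The poly-A control probe sets had a mean log2 level of 8.12 on 4 h replicate 1, against 5.78 to 6.23 on the other arrays, and without this array 4 genes were again called lower at 4 h against mock and 2 at 4 h against 1 h. Over all loci the median SD was 0.10 for mock, 0.10 for 1 h and 0.145 for 4 h. PLT2 (AT1G51190), whose probe set may detect the fusion as well as the mutated gene, was at 8.58 in mock, 8.92 at 1 h and 8.56 at 4 h, and PLT1 (AT3G20840) at 4.33, 4.34 and 4.43. The 1 h arrays of PLT2 were all above the mock arrays. Neither gene was called in the limma fit (adjusted p from 0.219 to 0.998 over the 3 comparisons).

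Several of the 10 genes also differed between mock arrays that had received the same treatment. Mock replicate 1 was the lowest mock array for 8 of the 10, which was the case for 35.9% of all loci. It lay below the mean of the other mock arrays by -0.905 for GGCT2;1, -0.904 for SDI2, -0.708 for SULTR1;2, -0.705 for BGLU28, -0.505 for SULTR4;2 and -0.488 for SDI1, while the median over all loci was -0.002. An SD within mock as large as that of GGCT2;1 was found in 0.056% of all loci, as large as that of SDI2 in 0.112%, of SULTR1;2 in 0.327% and of BGLU28 in 0.383%. The share was 1.6% for SULTR4;2 and 2.6% for SDI1. For LSU1, SULTR1;1, SULTR2;1 and LSU2 it was 16.6%, 31.9%, 43.2% and 82%. After removing the group means, the correlation over the 9 arrays was 0.95 between SDI1 and SDI2, 0.92 between GGCT2;1 and SDI1 and 0.85 between GGCT2;1 and SDI2. Of all 45 pairs 33 were above 0, with a median of 0.45, and LSU2 was at -0.58 with GGCT2;1. LSU2 and SULTR1;1 did not share the low level of mock replicate 1 (0.06 and 0.05 higher there). With mock replicate 1 left out, the difference at 4 h against mock was -2.81 for GGCT2;1, -2.15 for BGLU28, -1.29 for SULTR1;2 and -0.953 for SULTR4;2, and these 4 genes were again the ones called.

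**Figure D3:**
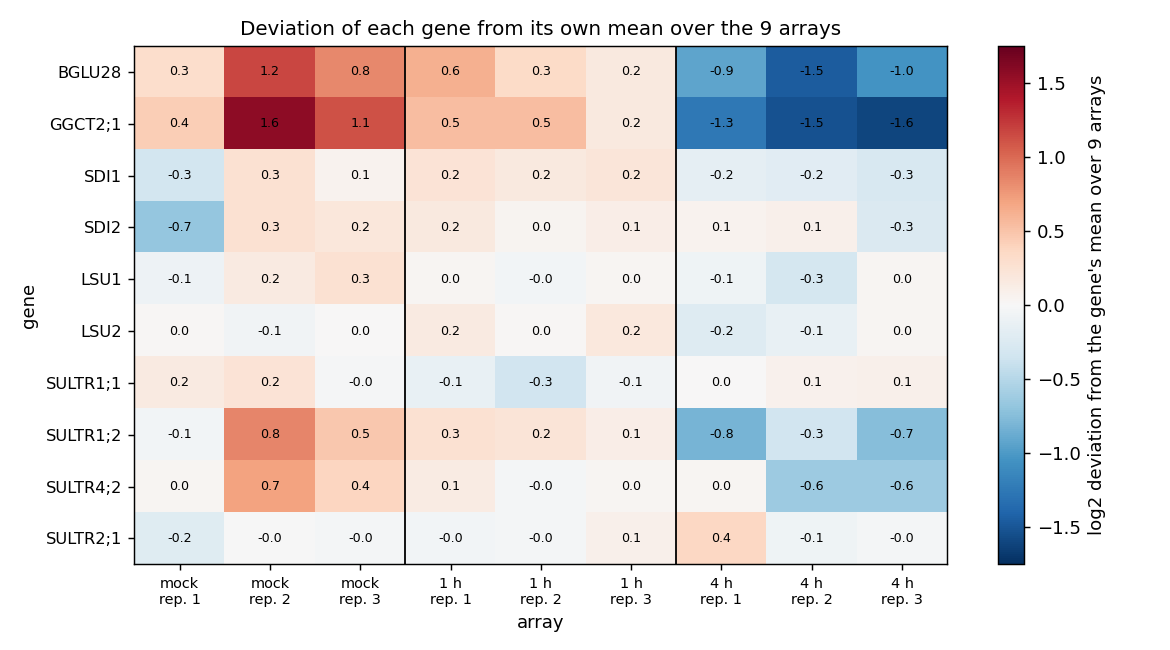
Deviation of each gene (rows) from its own mean over the 9 arrays (columns), in log2 units, red above and blue below the mean. The 4 h arrays are low for BGLU28, GGCT2;1 and SULTR1;2, and mock replicate 1 is lower than mock replicates 2 and 3 in most rows, with the widest gap for SDI2 and GGCT2;1.

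Over the 45 pairs of the 10 genes the Pearson correlation across the 9 arrays ranged from -0.44 (LSU2 and SULTR2;1) to 0.99, with a median of 0.37, and 5 pairs were above 0.8. Those pairs were formed by BGLU28, GGCT2;1, SULTR1;2 and SULTR4;2. SDI1 was at 0.77 with SULTR1;2 and 0.71 with BGLU28, and SDI2 at 0.25 with GGCT2;1 and 0.23 with BGLU28. Outside the list, among 3588 loci with an SD over the arrays of at least 0.25, the closest to the mean profile of the 10 genes were AT5G64600 (r = 0.969), AT5G53900 (0.963), JP630 (AT1G23760, 0.961), the protein kinase gene SNRK2.5 (AT5G63650, 0.955), AT2G17880 (0.946) and SCPL25 (AT3G02110, 0.945). At 4 h against mock their differences lay between -0.80 (SCPL25) and -0.44 (AT5G64600). These loci were picked for likeness to a profile that is itself low at 4 h, so this direction follows from the choice. The mean profile is dominated by GGCT2;1 and BGLU28, whose changes were the widest.

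Genes of the same pathway outside the list were examined next, with adjusted p-values from the limma fit over all loci. The pathway and nutrient lists, too, were chosen with earlier results of these data known. Their counts and p-values are therefore a description. Of all loci, 5.23% were called lower and 5.53% higher at 4 h against mock. Of 6 other measured genes of the sulfur-deficiency response, limma called 0 in any comparison, and 1 had an unadjusted p under 0.05 at 4 h against mock (lower), near the 13.7% of all loci that did. That was SULTR4;1, the other vacuolar sulfate exporter, at -0.53 ± 0.16 (adjusted p = 0.054). SHM7, a serine hydroxymethyltransferase gene induced with SDI1 and LSU1 under sulfur deficiency, was at -0.51 ± 0.25 (adjusted p = 0.22), and LSU4 at -0.02. BGLU30, a further beta-glucosidase of the response, was at -0.16, the nitrile specifier gene NSP5 at -0.15 and APR3 at 0.08. Among 8 other sulfate transporters, of which SULTR4;1 is one, limma called 0, with 1 (SULTR4;1 again) lower at an unadjusted p under 0.05 at 4 h against mock. SULTR3;2 was at 0.47 ± 0.20 at 1 h against mock (adjusted p = 0.998), at -0.26 ± 0.20 at 4 h against mock (adjusted p = 0.454) and at -0.73 ± 0.20 at 4 h against 1 h (adjusted p = 0.0782), where all 4 h arrays were below all 1 h arrays. The median at 4 h against mock was -0.16 for the 6 response genes and 0.01 for the 8 transporters.

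Of 19 measured genes for enzymes that reduce sulfate and make cysteine, limma called 1 lower at 4 h against mock and 0 higher. That is near the 5.23% of all loci called lower. The gene was the cysteine synthase CYSD1 (AT3G04940), at -0.46 ± 0.11 on the log2 scale (adjusted p = 0.0266). The other 18 were not called, and the list median was -0.02. The call of CYSD1 was lost without mock replicate 2, mock replicate 3 or 4 h replicate 2, and its adjusted p ranged from 0.00973 to 0.653 over the alternatives. The APS reductases, which catalyse the controlling step of sulfate reduction and are induced together with the sulfate carriers when sulfur is short, were at 0.21 (APR1), -0.07 (APR2) and 0.08 (APR3) at 4 h against mock, none of them called.

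Genes of glutathione metabolism gave 3 calls at 4 h against mock among 12 measured, all lower, beside 5.23% of all loci called lower. These were GGP3 (AT4G30550), a gamma-glutamyl peptidase, at -0.44 ± 0.10 (adjusted p = 0.0197), GGT4 (AT4G29210), a vacuolar gamma-glutamyl transpeptidase, at -0.44 ± 0.11 (adjusted p = 0.0343), and its relative GGT1 (AT4G39640) at -0.56 ± 0.16 (adjusted p = 0.0476). Without 4 h replicate 1 limma called 1 of the 12. Leaving out single arrays ended the call in 3 of 9 cases for GGP3, in 5 for GGT4 and in 6 for GGT1, and quantile normalization, array weights, the fit of the 2 groups alone and the replicate block each ended it for GGT1. A minimum fold change of 1.2 ended it for all 3. Over the alternatives the adjusted p ranged from 0.0066 to 0.638 for GGP3, from 0.0233 to 0.794 for GGT4 and from 0.0177 to 0.616 for GGT1. The paralogs GGCT2;2 and GGCT2;3 of the same enzyme were at 0.47 (adjusted p = 0.0691) and 0.06, neither called. The glutathione synthesis genes GSH1 and GSH2 were at 0.03 and -0.09, not called. The list median was 0.01.

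Among 11 regulators of sulfur and glucosinolate genes, limma called 1, lower at 4 h against mock (5.23% of all loci) and against 1 h (0.966%). This was EIL1 (AT2G27050), a transcription factor of ethylene signalling in the same family as SLIM1. Its log2 level was 9.30, 9.34 and 9.46 in mock, 9.33, 9.40 and 9.27 at 1 h, and 8.81, 8.83 and 8.88 at 4 h. All 4 h arrays lay below the other 6. The difference was -0.52 ± 0.08 at 4 h against mock (adjusted p = 0.0056) and -0.49 ± 0.08 at 4 h against 1 h (adjusted p = 0.0291). The first call held with each single array left out, whereas the second was lost in 8 of 9 cases. A minimum fold change of 1.2 ended both calls. Over the alternatives the adjusted p ranged from 0.00373 to 0.188 for the first and from 0.00899 to 0.809 for the second. SLIM1 was at 0.18, EIN3 at -0.15, and MYB28 and MYB29, activators of aliphatic glucosinolate genes, at 0.09 and 0.18, none of them called. MYB34, an activator of indolic glucosinolate genes, was at 0.81 (adjusted p = 0.0762).

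Of 10 measured beta-glucosidases close to BGLU28, limma called 0 at 4 h against mock and 2 had an unadjusted p under 0.05, both lower (13.7% of all loci were): PYK10, the abundant root enzyme of ER bodies, at -0.43 (adjusted p = 0.0562) and PEN2, which hydrolyses indolic glucosinolates in defence, at -0.30 (adjusted p = 0.176). The median was 0.07. BGLU29 was at 0.13.

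Lists of genes for other nutrients are given for comparison. Over all loci limma called 5.23% lower at 4 h against mock and 5.53% higher. At 4 h against mock limma called 1 of 12 phosphate-deficiency genes lower (the phosphate transporter PHT1;4, -1.21 ± 0.32, adjusted p = 0.0391), 1 of 10 iron-deficiency genes (the transcription factor FIT, -0.83 ± 0.21, adjusted p = 0.0331) and 1 of 10 nitrogen genes (the nitrate reductase NIA2, -0.62 ± 0.17, adjusted p = 0.0391), and 0 of each list higher. Each of these calls was lost when single arrays were left out, in 8, 6 and 8 of 9 cases, 4 h replicate 1 among them, and the adjusted p ranged over the alternatives up to 0.247, 0.304 and 0.477. The medians were -0.10, 0.01 and -0.20, beside -0.23 for the 10 sulfur-deficiency response genes. Whether the lists differ from each other was not tested.

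**Figure D4:**
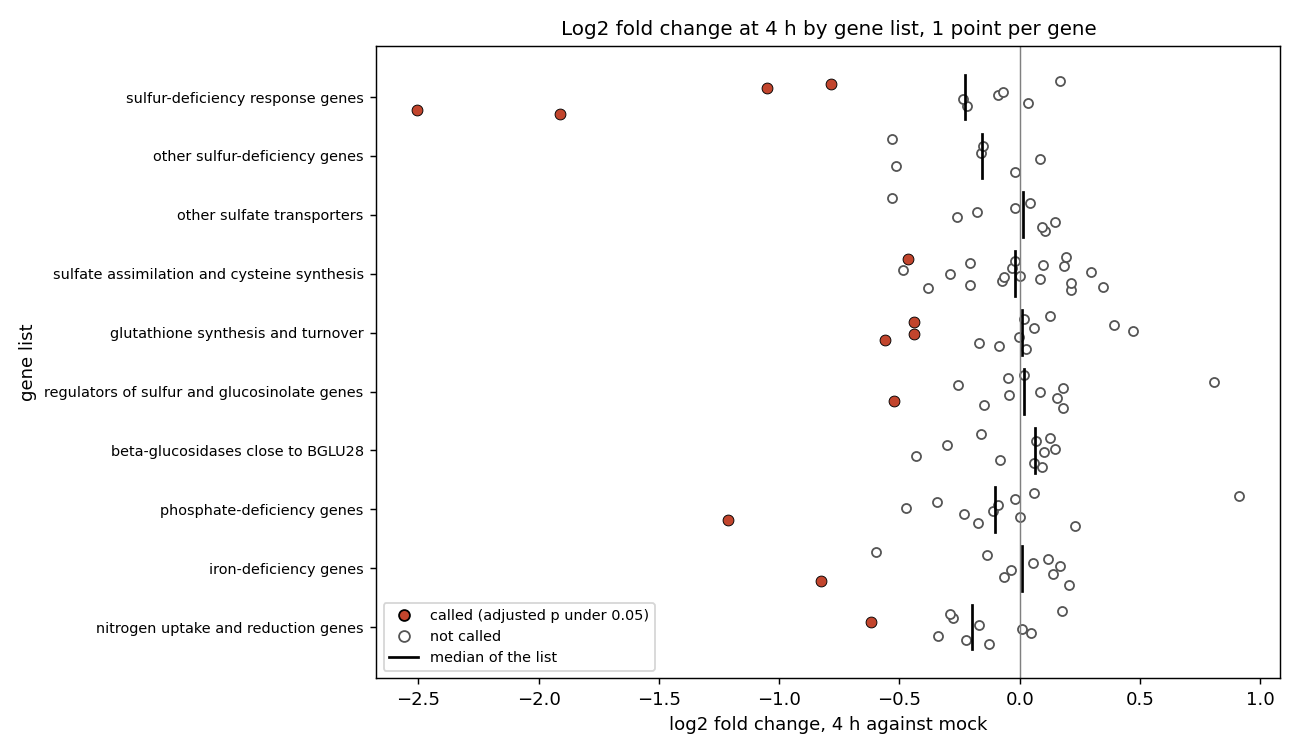
Log2 fold change at 4 h against mock (x axis) for the 10 sulfur-deficiency response genes and the other gene lists (rows), with 1 point per gene, filled where limma called it, and the list median as a bar. GGCT2;1 (-2.50) and BGLU28 (-1.91) are the only points left of -1.5, and the medians of all lists lie between -0.23 and 0.07.

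Since sulfate carriers are known from outer root layers, markers of cell types other than the QC were set beside these values. In bulk samples of sorted cells, fewer cells of a type and less RNA per cell cannot be told apart. For 11 cortex and endodermis markers the log2 of the summed level lay between 8.25 and 8.66 on mock arrays, between 8.31 and 8.5 on 1 h arrays and between 7.74 and 8.09 on 4 h arrays. For 9 epidermis and root hair markers the ranges, in the same order, were 9.82 to 9.94, 9.7 to 9.91 and 9.43 to 9.82, and for 6 root cap markers 11.77 to 12.14, 11.69 to 12.04 and 11.43 to 11.76. For 10 vascular markers they were 9.48 to 9.59, 9.43 to 9.66 and 9.34 to 9.49, and for 6 QC and stem cell niche markers 10.33 to 10.39, 10.23 to 10.35 and 10.21 to 10.44. For the 4 other tissues in this order, limma called 2 of 11, 2 of 9, 0 of 6 and 3 of 10 lower. This was at 4 h against mock, where 5.23% of all loci were called lower and 5.53% higher. Called lower were AED3 (-1.09) and ESB1 (-0.52) of cortex and endodermis, and RHD6 (-0.81) and RHD2 (-0.72) of epidermis and root hair. The vascular markers called lower were XCP1 (-0.69), TMO5 (-0.52) and ACL5 (-0.47). Called higher were 1 root cap marker, FEZ (0.97 ± 0.24, adjusted p = 0.0279), and 1 vascular marker, PHB (0.64 ± 0.14, adjusted p = 0.021). Of the 6 niche markers limma called 0. At an unadjusted p under 0.05, 5 of 11 cortex and endodermis, 2 of 9 epidermis and root hair, 4 of 6 root cap, 3 of 10 vascular and 1 of 6 niche markers were lower, against 13.7% of all loci. The QC marker AGL42, the root hair marker LRX1, the cortex marker CO2 and the xylem regulator VND7 were below the first quartile on all arrays. WOX5, whose promoter drove the reporter of the sort, and the niche marker WIP5 were not among the measured loci. The cortex and endodermis sum was lower on all 4 h arrays than on all mock arrays. So was the root cap sum, by a narrow margin (up to 11.76 at 4 h, from 11.77 in mock). A sum weighs its highest markers most, which in the root cap was RCPG (11.55 in mock, next BRN1 at 9.54). Among niche markers these were PLT3 (9.63 in mock) and SCR (8.55). Whether the niche sum follows the number of QC cells was not tested. The part of cortex, endodermis, epidermis, root cap and vascular cells in the levels of GGCT2;1, BGLU28 and SULTR1;2 was not tested.

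**Figure D5:**
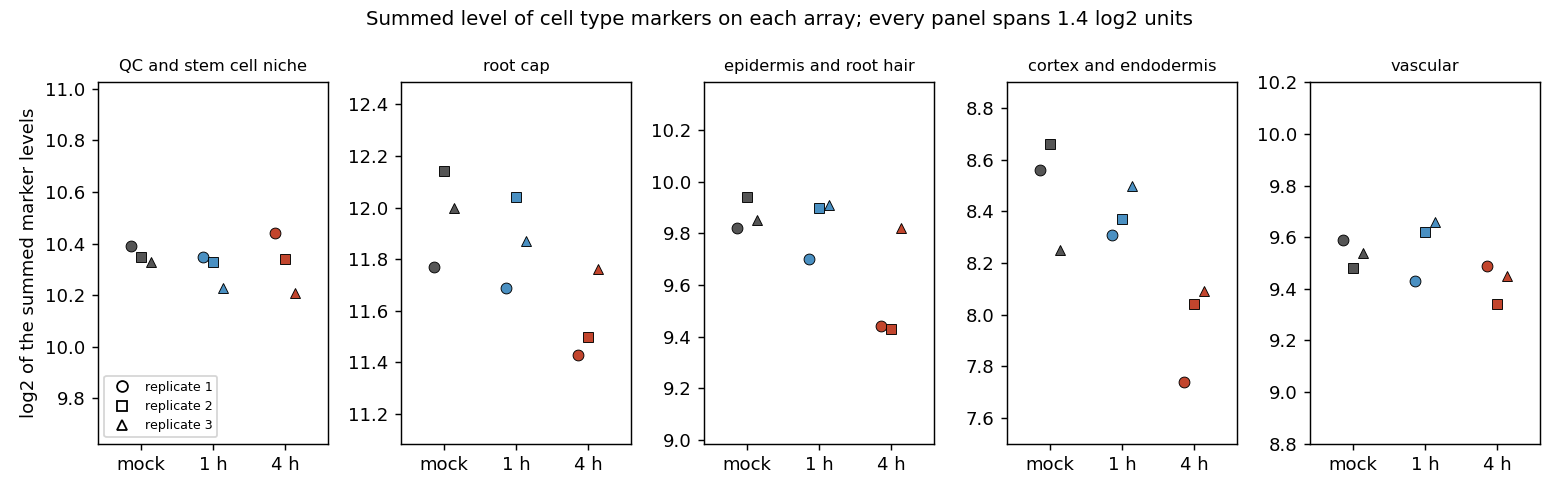
Log2 of the summed level of the markers of each cell type on each array (y axis, panels of equal height), by group and replicate. The cortex and endodermis sum is lower on all 4 h arrays (7.74 to 8.09) than in mock (8.25 to 8.66). The QC and stem cell niche sum, in which PLT3 and SCR weigh most, overlaps between groups.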

How the data were processed

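The authors deposited normalized log2 values, 1 per probe set and array. RMA is named per the submitters' processing notes, as is limma 3.24.15. For array type, probe set definition and genome build, no information was found (not given in the sources used here). Coordinates and sequences are therefore not shown. Of 21494 probe sets, 64 were controls, and 21430 carried a locus as name (21231 matched RefSeq TAIR10.1, used for symbols).

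The values were used as deposited. A single limma 3.58.1 model (R 4.3.3, lmFit and eBayes, 6 residual and 4.47 prior degrees of freedom) was fitted to all 9 arrays, with 2-sided tests of 3 contrasts and Benjamini-Hochberg adjustment over all loci. The labels call the arrays biological replicates without saying whether they came from separate cultures, so p-values measure only the spread between these arrays. Their number limits the precision (median SE 0.108). The procedure was tested on simulated data.

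The members and lists were chosen with earlier results of these data known. The rule for naming genes took the 10 members, PLT1, PLT2, called genes of each pathway list (with none called, the 2 of widest change at 4 h), and the 6 loci most like the members. Cell type markers came from a listed set. Genes named otherwise (APR1 to APR3, LSU4, BGLU30, NSP5, GGCT2;2, GGCT2;3, GSH1, GSH2, SLIM1, EIN3, MYB28, MYB29, MYB34 and BGLU29) were chosen after their values were seen. APR3, BGLU30 and SULTR4;1 each belong to a pair of lists. Alternatives were quantile normalization, median centring, a filter on dim loci, other eBayes settings, array weights, fits of the groups compared alone, a replicate block, a minimum fold change, and leaving out each array.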

Additional observations from a re-analysis of the deposited data

How the results depend on the processing

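The differences of GGCT2;1, BGLU28, SULTR1;2 and SULTR4;2 at 4 h against mock kept their sign under all 17 alternatives, and the calls of GGCT2;1 and BGLU28 held in each. The list was chosen with values of these arrays in view and the alternatives reuse them, so nothing is read from this. With a minimum fold change of 1.2 tested, 2 of the 10 genes were called lower at 4 h against mock and 0 at 4 h against 1 h, by construction of a stricter test, and 157, 3 and 9 loci (2305, 397 and 40 as reported) were called at 4 h against mock, at 4 h against 1 h and at 1 h against mock. With only the groups compared, 3 of the 10 were called lower at 4 h against mock and 1 at 4 h against 1 h, with 1067, 4 and 65 loci. The fit then rests on fewer arrays. Array weights gave 79 loci at 1 h against mock and 1699 at 4 h against 1 h (40 and 397 as reported). For array weights the cause was not tested. Leaving out single arrays gave 3 to 4 of the 10 lower at 4 h against mock, 0 to 2 at 4 h against 1 h (0 without any of the 1 h arrays or 4 h replicate 2) and 0 at 1 h against mock, and 688 to 4153, 3 to 2808 and 6 to 61 loci. The counts of 4153 and 2808 were both reached without 4 h replicate 3, so this array weighed heavily on the number of calls. With the replicate block 4, 3 and 0 of the 10 were called lower, SULTR1;2 being added at 4 h against 1 h, and 2340, 422 and 36 loci. Whether replicate numbers pair the arrays was not tested. Deviations from group means correlated at -0.13 to 0.27 for arrays with the same number and at -0.46 to 0.43 for other pairs between groups. With loci below the 40th percentile left out, 5 of the 10 genes (SDI1, LSU1, LSU2, SULTR1;1 and SULTR2;1) were not tested. On at least 1 array LSU1, LSU2 and SULTR1;1 were not above that array's first quartile.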
